A study of Mus musculus with 2 samples.

Results

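Signal for the EGR transcription factors and for the feedback inhibitors of the ERK pathway was examined in MLL-AF9 leukaemic stem cells, which the labels place in mouse bone marrow. The members were the genes Egr1, Egr2, Egr3, Dusp1, Dusp2, Dusp4, Dusp5, Dusp6, Spry1 and Spry2, found as probes whose annotated gene symbol was 1 of these 10 names. Of the 10 genes, 9 had a probe, with 16 probes among the 45281 on the array and 9 genes among the 19057 named ones; no probe was named Spry1 in the annotation used, and it was not analysed here. PirBTM MLL-AF9 cells were compared with wild-type (WT) MLL-AF9 cells; both were of C57BL/6J background, were labelled 9 weeks of age and carried MLL-AF9, a fusion gene that causes acute myeloid leukaemia. The labels do not say what the PirBTM genotype changes, how the fusion was introduced, or how many animals gave each RNA. Each genotype had 1 bead array, so the values compare 2 samples, have no replicate error, and allow no test between genotypes. By their array names both lay on 1 chip, and array position and genotype cannot be told apart. Pirb, an inhibitory receptor gene of myeloid and B cells, was not analysed here, and the genotypes were not checked.

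The ERK pathway carries signals from growth factor, cytokine and adhesion receptors through RAS, RAF and MEK kinases to the kinases ERK1 and ERK2. ERK activates ternary complex factors that act with SRF at CArG boxes, and the EGR genes, which encode zinc finger transcription factors, are switched on there within minutes. In myeloid cells EGR factors take part in macrophage differentiation. The pathway also induces its own inhibitors: dual-specificity phosphatases (DUSP) remove phosphate from ERK and related kinases, and Sprouty proteins act upstream, between receptor and RAF.

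Promoter windows, reaching from 250 bases before to 50 bases after the annotated start, were available from RefSeq (build GRCm38.p6) for 7 of the genes, in 11 windows; Egr1, Egr3 and Dusp4 had none. The windows below are shown because they hold elements known from ERK, EGR and cAMP signalling in the genes whose signal is described next. Capitals mark matches to the CArG box (CC and GG around a run of A or T), the EGR site GCGNGGGCG, the cAMP response element TGACGTCA and the AP-1 site TGANTCA, each searched on both strands. For Egr2 the window with the most matches is shown, the first in the genome where several were equal.
Egr2, chr10:67537619-67537918, plus strand: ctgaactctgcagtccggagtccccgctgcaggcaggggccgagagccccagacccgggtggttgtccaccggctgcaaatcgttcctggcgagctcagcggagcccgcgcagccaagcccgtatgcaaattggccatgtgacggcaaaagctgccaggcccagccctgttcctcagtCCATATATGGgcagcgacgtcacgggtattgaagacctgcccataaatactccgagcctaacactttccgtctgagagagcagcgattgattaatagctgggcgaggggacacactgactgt
Dusp5, chr19:53528895-53529194, plus strand: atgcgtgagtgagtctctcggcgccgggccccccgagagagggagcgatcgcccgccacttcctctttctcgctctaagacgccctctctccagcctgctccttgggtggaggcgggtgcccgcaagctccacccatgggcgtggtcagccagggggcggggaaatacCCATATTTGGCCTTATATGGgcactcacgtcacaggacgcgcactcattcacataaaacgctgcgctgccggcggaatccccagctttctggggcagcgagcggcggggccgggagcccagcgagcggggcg
Dusp1, chr17:26508423-26508722, minus strand: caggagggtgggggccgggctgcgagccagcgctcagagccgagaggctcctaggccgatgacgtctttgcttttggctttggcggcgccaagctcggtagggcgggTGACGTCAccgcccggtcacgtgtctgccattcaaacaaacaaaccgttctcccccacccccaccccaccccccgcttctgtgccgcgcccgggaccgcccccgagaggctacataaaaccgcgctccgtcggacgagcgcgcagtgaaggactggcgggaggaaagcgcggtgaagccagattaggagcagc
Dusp2, chr2:127335909-127336208, plus strand: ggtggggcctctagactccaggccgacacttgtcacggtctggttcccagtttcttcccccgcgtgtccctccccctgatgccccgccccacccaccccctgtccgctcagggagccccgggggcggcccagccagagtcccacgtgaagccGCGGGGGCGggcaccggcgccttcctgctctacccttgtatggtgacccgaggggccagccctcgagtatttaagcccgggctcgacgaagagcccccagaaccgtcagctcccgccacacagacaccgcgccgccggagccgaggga
A CArG box began 72 bases before the start in this Egr2 window, and 2 further Egr2 windows overlap it and share that box. Of the other 2 Egr2 windows, 1 held a different CArG box and 1 held none. Dusp5 held a pair of adjoining CArG boxes, beginning 82 and 72 bases before its start. CArG boxes occurred in 1.63% of all 32851 windows. The Dusp1 window held a full cAMP response element 143 bases before the start, a motif present in 1.79% of windows. Its letters include the shorter TGACG, which 20.8% of windows held and which is not capitalized on its own. That shorter form was matched in 4 of the 7 member genes with a window, against 23.0% of all genes. The 4 were Dusp1, Dusp2, Dusp5 and Egr2. The Dusp2 window held an EGR site 98 bases before the start, as did 5.55% of windows. The windows of Dusp6, Spry1 and Spry2 held none of these 4 motifs, and no member window held an AP-1 site (7.81% of all windows) or the TATA box letters TATAAA (13.6%). The ETS core GGAAG was matched in 5 of the 7 member genes with a window, against 73.9% of all genes, so the members did not stand out. By window it was matched in 5 of 11, against 71.4%, a count in which overlapping Egr2 windows weigh more than once. A match describes the letters and does not show that a factor binds.

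Probes with a detection p-value under 0.01 were taken as above background. Of the 9 genes with a probe, 5 (Egr1, Dusp1, Dusp2, Dusp5 and Dusp6) were above background on both arrays, 3 (Egr2, Egr3 and Dusp4) on the PirBTM array only, and Spry2 on neither. All 5 genes measured on both arrays exceeded a 2-fold difference upward in PirBTM, as did 9.75% of the 7858 genes so measured. With lower bounds for genes lit on the PirBTM array only, 7 members passed 2-fold upward in PirBTM and 0 passed it downward, against 12.8% and 9.63% of all 9432 genes above background on an array. Genes that entered through the PirBTM array alone had to be brighter there, so their place among the 7 is not separate support; 12.1% of the 9432 genes entered that way. The median log2 ratio of the 5 members measured on both arrays was 2.17, beside -0.22 over all such genes. Over the 8 members above background on an array it was 2.25 (1.91 with bounds), beside -0.15. Disagreement between paired probes of 2944 genes put the measuring SD of a log2 ratio at 0.30, which leaves out differences between animals and preparations.

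**Figure D1:**
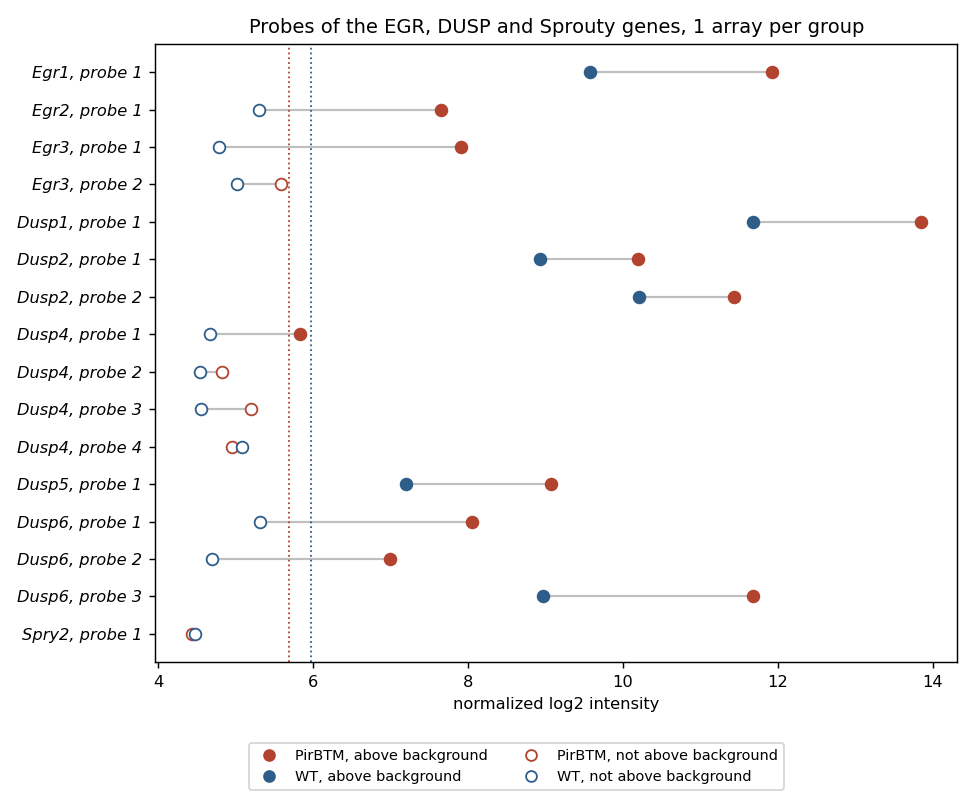
Normalized log2 intensity of each of the 16 probes on the PirBTM array (red) and the WT array (blue), filled where the probe was above background, with dotted lines at the lowest value above background on each array (5.68 on PirBTM and 5.97 on WT). The filled pairs of Egr1, Dusp1, Dusp2, Dusp5 and Dusp6 all have PirBTM to the right, while the probes of Spry2 and most probes of Dusp4 lie left of both lines.

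Egr1, widely used as a readout of ERK activity, had a raw signal of 4278 on the PirBTM array, against 806 on the WT array. Its normalized log2 intensities were 11.93 in PirBTM and 9.58 in WT, a log2 ratio of 2.35, or 5.08-fold. Egr1 was thus plainly lit on both arrays and brighter in PirBTM, with a ratio above that of 97.3% of genes measured on both arrays. Its single probe gave log2 ratios of 2.15 to 2.60 over the alternatives tried.

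Egr2, which also drives myelination in Schwann cells, had a signal of 365 on the PirBTM array, against 157 on the WT array, where its detection p-value was 0.0801. The WT value was not above background, so the difference is a bound: Egr2 was at least 3.20-fold higher in PirBTM. Egr3, a factor best known from lymphocytes and muscle spindles, had 411 on the PirBTM array, against 142 on the WT array with a detection p-value of 0.331. This probe gave at least 3.85-fold. The second Egr3 probe had 186 on PirBTM, against 149 on WT, and was above background on neither array (detection p-values 0.0192 and 0.174), so Egr3 rests on 1 of its 2 probes. The bounds of Egr2 and Egr3 were under 2-fold without background correction (1.72-fold and 1.94-fold) and in the authors' deposited values (1.67-fold and 1.88-fold). Of Egr1, Egr2 and Egr3, Egr1 alone had a measured level on both arrays.

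Dusp6, the cytoplasmic phosphatase most selective for ERK, had the highest ratio of the members measured on both arrays. Its brightest probe had 3627 on the PirBTM array, against 567 on the WT array, a log2 ratio of 2.71 or 6.54-fold. The other Dusp6 probes had 437 and 281 on PirBTM, against 157 and 138 on WT, where both were below the detection limit. They gave at least 4.23-fold and at least 2.03-fold, but a probe lit on the PirBTM array only can give no bound downward. Their direction is therefore not separate support. In the authors' deposited values their log2 ratios were 1.17 and 0.75. By its brightest probe Dusp6 lay above 98.1% of genes measured on both arrays. Dusp4, a nuclear phosphatase of ERK and JNK, lay close to background: its brightest probe had 198 on PirBTM (detection p-value 0.00321), against 136 on WT (0.505), which bounds no fold. The other 3 Dusp4 probes were above background on neither array, with 154, 170.1 and 160.2 on PirBTM, against 129.8, 130.1 and 151 on WT.

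Dusp1, a nuclear phosphatase induced by stress, growth factors and glucocorticoids, had a signal of 15651 on the PirBTM array, against 3206 on the WT array. Its log2 ratio was 2.17, or 4.49-fold, from a single probe that was not at the top of the scale on either array (highest signals 52213.5 and 52538.1). Dusp5, the nuclear phosphatase specific for ERK, had 731 on PirBTM, against 246 on WT, a log2 ratio of 1.87 or 3.66-fold. The ratios of Dusp1 and Dusp5 were 7.29 and 6.30 times the measuring SD, which is no test between genotypes, as each rests on 1 probe and 1 array per group. The windows printed above hold a cAMP response element for Dusp1 and CArG boxes for Dusp5. Dusp6, with the larger ratio of 6.54-fold, held none of the 4 marked motifs, and a link between motifs and ratios was not tested. Dusp2, a nuclear phosphatase of activated leukocytes, had 3066 and 1402 on PirBTM at its 2 probes, against 1202 and 554 on WT. The probes agreed closely, with log2 ratios of 1.23 and 1.26, and the brighter gave 2.34-fold. Dusp2 thus had the smallest ratio of the 5 genes measured on both arrays, and it was just under 2-fold (1.98-fold) with median scaling.

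Spry2, a Sprouty protein that restrains RAS and RAF activation, had 127 on PirBTM, against 125 on WT, with detection p-values of 0.979 and 0.952. It had no measured level on either array, and nothing can be said of its difference.

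**Figure D2:**
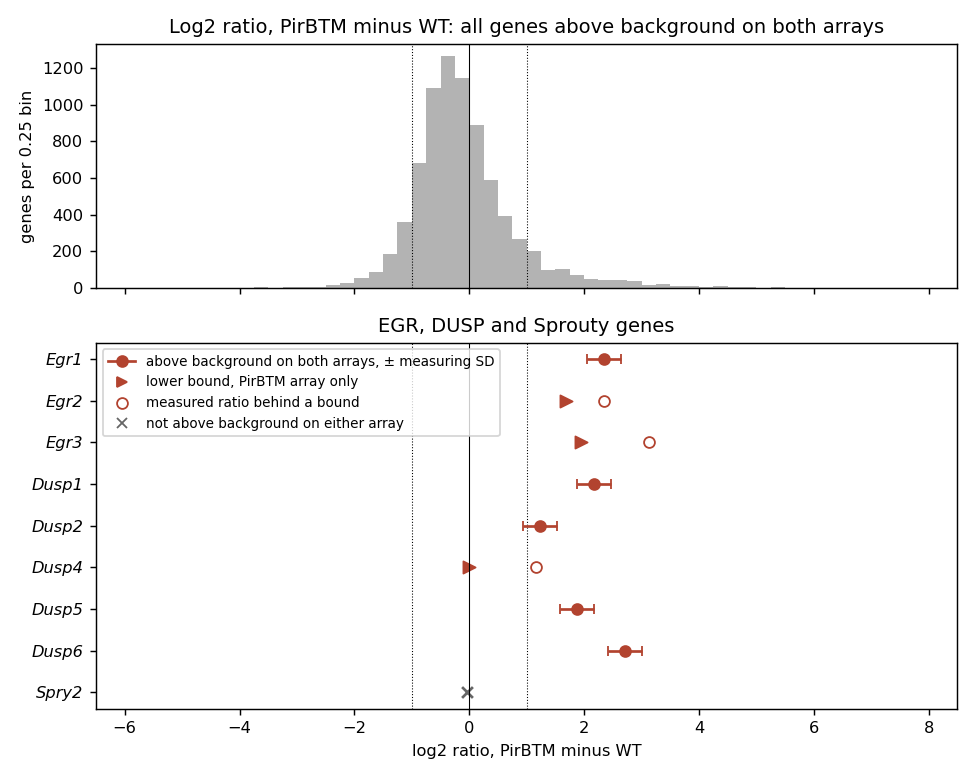
Top, number of genes per 0.25 bin of the log2 ratio, PirBTM minus WT, for the 7858 genes above background on both arrays; bottom, the 9 genes with a probe, as ratios with the measuring SD of 0.30 (filled circles), lower bounds (triangles) with the measured ratio behind them (open circles), or a ratio below background (cross), with dotted lines at 2-fold. Egr1, Dusp1, Dusp2, Dusp5 and Dusp6 lie between 1.23 and 2.71, right of the bulk of all genes.

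The ratios of the members spread from 1.23 for Dusp2 to 2.71 for Dusp6 on the log2 scale among those measured on both arrays. Neighbours in the order Dusp6, Egr1, Dusp1, Dusp5 differed by 0.36, 0.18 and 0.29, none by more than 0.42, the SD expected of a difference between 2 single-probe ratios; Dusp5 and Dusp2 differed by 0.65. The raw signal was brighter on the PirBTM array at all 16 probes, 5 of which were above background on neither array. That array was brighter as a whole, with a median raw signal of 161.3 against 148.2 on WT. The share over all probes was not counted, so the raw count is no trait of these genes. After normalization 14 of the 16 probes were brighter in PirBTM, the exceptions being the fourth Dusp4 probe and Spry2, both below background. The share over all probes was not counted here either. Moreover, 5 of the 16 probes were lit on the PirBTM array only, which favours that direction. The normalized count is thus no trait of these genes either.

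Other feedback inhibitors were mixed. Of 12 listed DUSP, Sprouty and Spred genes, 7 were above background; 3 of these passed 2-fold upward and 0 downward, with a median log2 ratio of 1.68 (0.95 with bounds). Dusp16, a phosphatase of JNK and p38, had log2 intensities of 9.72 in PirBTM and 6.53 in WT, or 9.09-fold, and Spred1, an inhibitor of RAS activation, was 4.83-fold higher at 9.38 and 7.11. At the other end, Dusp7, a close relative of Dusp6, had a log2 ratio of 0.15 at 9.53 in PirBTM and 9.38 in WT. Spry4 was lit on the PirBTM array only, with no bound above 1-fold. The other 5, among them Spry3, Spred2 and Spred3, were above background on neither array, and of the Sprouty genes with a probe Spry4 alone was above background, on PirBTM.

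The core of the pathway differed less. Of 30 listed genes of the RAS-RAF-MEK-ERK cascade 23 had a named probe and 18 were above background; 2 passed 2-fold upward and 0 downward, and the median log2 ratio was 0.15 (0.11 with bounds). Rasgrp1, a RAS activator of lymphocytes, was at least 17.1-fold higher in PirBTM by its brightest probe (a second gave at least 1.63-fold, and the other was above background on neither array), and Gab1, a docking protein of receptor signalling, 4.21-fold higher. The lowest were Rasgrp4, a RAS activator of mast and myeloid cells (log2 ratio -0.50), and Rasgrp2, the activator of RAP1 in platelets (-0.43). The probes of Rasgrp4 disagreed: its dimmer ones gave 1.46 and 1.77. By their brightest probes Nras, Shc1, Ptpn11, Araf and Map2k2 had log2 ratios between -0.14 and 0.20, within the measuring error. Dimmer probes above background on both arrays gave -0.52 and -0.62 for Ptpn11 and -0.35 to 0.18 for Araf, and a dim Shc1 probe lit on WT only gave at most -0.49.

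Transcription factors on which ERK acts gave a median log2 ratio of 0.67 (0.59 with bounds) over 7 of 10 genes above background, 2 of them at least 2-fold higher. Ets1, an ETS factor of lymphocytes and endothelium, was 6.29-fold higher in PirBTM by 1 probe, its other 3 being below background. Etv5, an ETS factor that follows ERK activity in many tissues, was at least 3.56-fold higher. Srf itself (log2 ratio -0.13) and its coactivator Mrtfa (0.03) differed by less than the measuring error by their brightest probes, while a dim Srf probe lit on WT only was at least 1.78-fold lower in PirBTM. Nab1, a corepressor that binds EGR proteins, had a log2 ratio of -0.14, and its other probes above background on both arrays gave -1.07 to 0.16. Nab2 and Egr4 were above background on neither array.

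Other immediate early genes were higher on the same array: of 25 listed, 24 had a probe, 18 were above background, and 14 of these passed 2-fold upward and 0 downward. Their median log2 ratio of 1.96 lay near that of the EGR and DUSP members. Atf3, a stress-induced factor, was at least 15.2-fold higher and Klf4, a monocyte factor, 10.7-fold, while Myc (log2 ratio -0.13) and Ier2 (-0.01) differed by less than the measuring error. Ier2 lay close to background on both arrays, at log2 intensities of 6.01 in PirBTM and 6.03 in WT, so its ratio says little. The other 6, including Nr4a1, Nr4a3, Btg2 and Ier5, were above background on neither array.

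**Figure D3:**
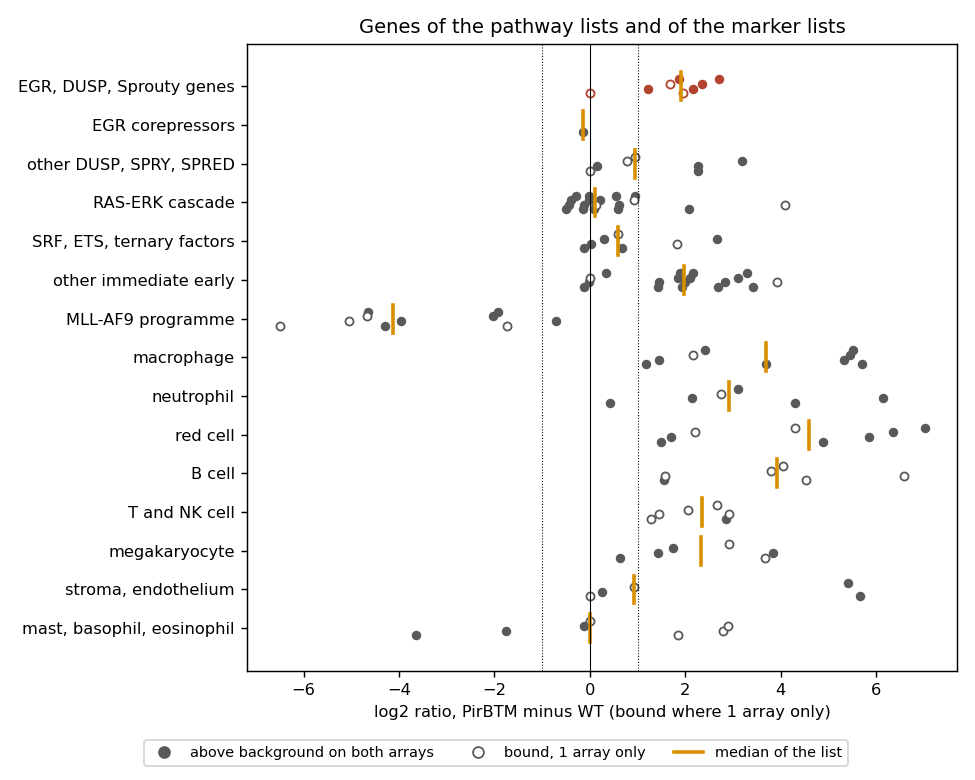
Log2 ratio, PirBTM minus WT, of each gene above background on an array, by list, as measured (filled) or as a bound (open), with the list's median as an orange bar. The EGR, DUSP and Sprouty genes (median 1.91) and other immediate early genes (1.96) lie to the right of the RAS-ERK cascade (0.11), as do most marker lists, and genes of the MLL-AF9 programme lie to the left.

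Most marker genes of macrophages, neutrophils, red cells, lymphocytes and megakaryocytes were also higher on the PirBTM array. Among macrophage markers 9 of 10 were above background on PirBTM and 8 on WT, all 9 at least 2-fold higher, with a summed intensity of 56199 in PirBTM and 6391 in WT; C1qb was highest at 52.1-fold, Adgre1 lowest at 2.25-fold, and Cd5l was below background on both arrays. Late neutrophil markers summed to 119683 in PirBTM and 30632 in WT, with 6 of 7 above background on PirBTM, 5 on WT and Mmp8 on neither, and ranged from 1.33-fold (Camp) to 70.9-fold (Retnlg). Red cell markers summed to 113220.4 in PirBTM and 27241 in WT, with 8 of 8 above background on PirBTM and 6 on WT, and ranged from 2.80-fold (Hbb-bt) to 130.3-fold (Car1); the Hbb-bt probe was near the top of the scale on PirBTM, and its other probes gave 4.72-fold to 13.3-fold.

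Most lymphocyte markers were not above background in WT. The sums of each marker list include genes below background, so most of the T and NK cell sum in WT is background level. Ccl5 alone of that list was above background there, at a log2 intensity of 6.02. B cell markers summed to 14458 in PirBTM and 1820.4 in WT, with 6 of 7 above background on PirBTM, 1 on WT and Pax5 on neither; Cd72 was at least 96.1-fold higher and Cd79b 2.95-fold. T and NK cell markers summed to 1942 in PirBTM and 257 in WT, with 6 of 7 above background on PirBTM, 1 on WT and Ncr1 on neither; Klrd1 was at least 7.52-fold and Cd3g at least 2.41-fold higher. Megakaryocyte markers summed to 3333 in PirBTM and 565 in WT, with 6 of 6 above background on PirBTM and 4 on WT, from Itga2b (1.54-fold) to Pf4 (14.2-fold). Stromal and endothelial markers summed to 22678 in PirBTM and 1113 in WT, with 5 of 8 above background on PirBTM, 3 on WT and Kdr, Lepr and Col1a2 on neither; Cxcl12 was 50.7-fold higher, but the endothelial genes Pecam1 (1.19-fold) and Cdh5 (bound close to 1-fold) did not pass 2-fold, and 2 of the 5 measured genes passed 2-fold, Cxcl12 and Bgn.

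Mast cell, basophil and eosinophil markers differed from these lists, with sums of 23739.8 in PirBTM and 27829 in WT. Most of both sums came from Prg2, an eosinophil gene with log2 intensities of 14.43 in PirBTM and 14.56 in WT. Above background were 7 of 8 on PirBTM, 3 on WT and Ms4a2 on neither. Of the 7, 3 passed 2-fold upward and 2 downward, from Prg3, 12.4-fold lower, to Prss34, at least 7.48-fold higher. Genes of the MLL-AF9 programme, which mark the labelled cells, went the other way: 9 of 10 were at least 2-fold lower in PirBTM, 6 of 10 were above background there against 10 of 10 in WT, and their sums were 3693 in PirBTM and 22869.5 in WT. Igf2bp3 was lowest, at least 90.7-fold lower, and Kit had a log2 ratio of -0.71. The sample labelled PirBTM thus had less signal for that programme, with Hoxa5, Hoxa10, Eya1 and Igf2bp3 below background. In a bulk array more cells of a type and more RNA per cell cannot be told apart, and the part of these marker differences in the EGR and DUSP values was not tested.

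The processing mattered most for the dim genes. The median over all genes was -0.15 as reported and 0.10 with cyclic loess, so ratios are also given relative to it. Over genes measured on both arrays, the median of the 5 members lay above the median of all genes by 2.39 as reported, 2.42 with cyclic loess and 2.23 with median scaling. In the authors' deposited values Egr1 (2.20), Dusp1 (2.08) and Dusp6 (2.51) were close to the values above, whereas Egr2 (0.91), Egr3 (1.24), Dusp4 (0.34) and Dusp5 (1.29) were smaller.

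**Figure D4:**
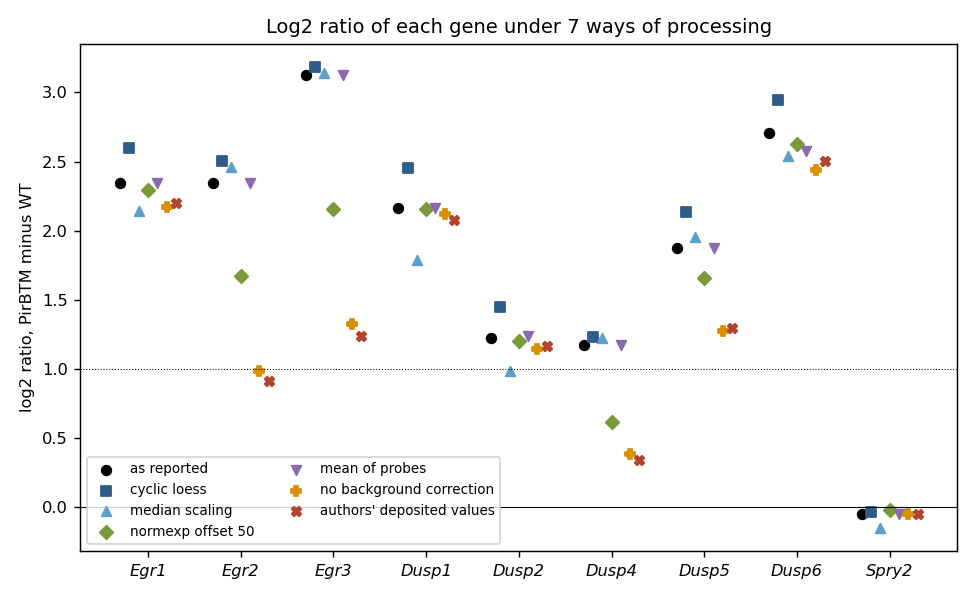
Log2 ratio, PirBTM minus WT, of each of the 9 genes as reported and under 6 other ways of processing; the dotted line marks 2-fold. Egr1, Dusp1, Dusp2 and Dusp6 keep similar ratios without background correction and in the authors' values, with Dusp1 (1.79) and Dusp2 (0.98) lower under median scaling, while Egr2, Egr3, Dusp4 and Dusp5 have smaller ratios without that correction and in those values, and Spry2 lies at 0.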

How the data were processed

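RNA was labelled as biotinylated cRNA for Illumina bead arrays, per the labels' protocols. The authors' deposited scanner file gives, by its headers, each probe's linear signal intensity, not normalized between arrays, with its detection p-value. The authors' deposited series table holds the same arrays' intensities in the same rank order (Spearman's rho 1.00), with sorted values within 0.16% of each other, as after quantile normalization. Software and genome build: not given in the sources used here.

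Scanner signals were corrected with limma 3.58.1 (nec, offset 16; R 4.3.3), with negative controls inferred through detection p-values, then quantile normalized and taken to log2. The annotation gave 34885 probes a single gene, 18 several genes and 10378 none; 34807 matched RefSeq (GRCm38.p6) by gene identifier and 0 symbols changed. Each gene is shown by its probe of highest mean intensity. For a gene lit on a single array the fold given is a lower bound, set against the dim array's value or, if higher, the lowest value above background there. The number of arrays (1 per group) limits the precision, and no test was possible. The normalization was tested on simulated data with known folds planted in bright probes, so that test does not cover dim probes. Named were all members, the 2 highest and 2 lowest genes of each pathway list and the extremes of each marker list; other names are examples. Members and lists were chosen with earlier results of these data known.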

Additional observations from a re-analysis of the deposited data

How the results depend on the processing

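Alternatives were 2 other normalizations, no background correction, an offset of 50, the authors' deposited values, a detection limit of 0.05, no detection filter, the mean of a gene's probes, and 1.5-fold or 3-fold in place of 2-fold. The members past the fold in use upward numbered 5 to 8 over these alternatives, against 7.86% to 19.5% of all genes counted. Those past it downward numbered 0, against 2.72% to 25.4%. The count of 5 came without background correction and in the deposited values, where 8.48% and 8.54% of genes passed upward. The count of 8 came without the detection filter (8.22% of genes), where Dusp4 entered by its unbounded ratio. The median log2 ratio of the members was 1.30 without background correction, 1.91 with an offset of 50 and 1.26 in the authors' deposited values, against 2.25 as reported. The detection alternatives leave a ratio unchanged by construction. The mean of probes changed only the ratios of Dusp6 (2.58) and Dusp2 (1.24), each by less than the measuring SD of 0.30. Under the 5 alternatives of normalization, background correction or deposited values, 28 of 40 ratios of the 8 measured members stayed within that SD of the reported value. In these 5, 12 ratios were lower by more than that, and 0 reversed. The 12 were 11 ratios of Egr2, Egr3, Dusp4 and Dusp5 without background correction, with an offset of 50 or in the deposited values, and Dusp1 with median scaling (1.79). An added constant compresses the ratio of a dim probe, and uncorrected background is such a constant. No value has a replicate, so differences between animals or preparations are not covered by any figure given here.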
